A study of Mus musculus with 22 samples.

Results

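The 9 genes of the activin system were followed in neurons and glia of the mouse hippocampus 24 h after kainate: the ligand subunit genes Inhba and Inhbb, the type I receptor genes Acvr1, Acvr1b and Acvr1c, the type II receptor genes Acvr2a and Acvr2b, and the antagonist genes Fst and Fstl3. They were taken by symbol from a table of 53379 genes, and all 9 were among the 40714 genes that passed the filter on low counts. The family was taken up with earlier results of these libraries known, in which Inhba and Acvr1c stood out in kainate neurons. For these genes the comparison of kainate with sham neurons is therefore a description: the genes called in the fit are counted, but no p is given and nothing is read from the count. The comparison of kainate with sham glia and that of sham neurons with sham glia were tested.

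The libraries came from adult male C57/BL6N mice that received kainate, an agonist of glutamate receptors that triggers seizures, or 0.9% NaCl (sham) above the right hippocampus, and the left, contralateral hippocampi were taken at 24 h according to the series' design and the methods, while the extraction protocol in the labels names the right side. Kainate mice were included only if they had convulsive seizures. Of each treatment, 8 mice were pooled into 3 samples of unequal numbers of mice, and the nuclear protein NeuN served to sort each into a neuronal (NeuN+) and a glial (NeuN–) fraction. Neurons have 3 libraries per treatment, kainate glia have 3 and sham glia have 2, replicates 1 and 3, after 1 failed preparation. NeuN– nuclei hold every cell type that lacks the protein, so the glia libraries are a mixture of cell types.

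Activins are secreted dimers of the inhibin beta subunits that Inhba and Inhbb encode, and belong to the transforming growth factor beta family. An activin binds a type II receptor, which then phosphorylates a type I receptor kinase, and this in turn activates Smad2 and Smad3, which act with Smad4 on transcription. Follistatin, encoded by Fst, and the follistatin-like protein encoded by Fstl3 bind activins and keep them from their receptors. In the hippocampus, Inhba is known as a gene that neuronal activity induces, and activin A as a factor that acts on synapses and neuronal survival.

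Library totals ran from 12058875 to 45428465 counts. Input was 1 ng of RNA with 10 amplification cycles, but 0.05 ng with 15 cycles in 2 glia libraries, replicate 2 of kainate and replicate 1 of sham. The sort held up against its markers, in normalized counts (CPM, scaled to the library total as adjusted by edgeR's TMM scaling). The 5 neuronal markers (Rbfox3, Snap25, Syt1, Slc17a7, Gad1) summed to between 2759 and 6552 CPM in the 6 neuron libraries. In the 5 glia libraries they summed to between 449 and 724 CPM, and none was at 0 in any library. The summed level of 5 oligodendrocyte markers was between 4631 and 36814 CPM in glia and between 185 and 439 CPM in neurons. In bulk libraries of this kind, fewer cells of a type and less RNA per cell cannot be told apart.

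The sequences before the start sites of Inhba and Acvr1c are shown because these are the 2 genes whose level differed most from sham in kainate neurons. Each is 250 bases upstream of the start in RefSeq's annotation of GRCm38.p6, written on the gene's strand. In GENCODE's annotation Acvr1c reaches chr2:58357895, so part of its printed sequence lies within the gene there. Capitals mark a match to the consensus of MEF2, a family of transcription factors that neuronal activity regulates. The motif was picked out after the sequence had been searched.
Inhba promoter, chr13:16011601-16011850, + strand: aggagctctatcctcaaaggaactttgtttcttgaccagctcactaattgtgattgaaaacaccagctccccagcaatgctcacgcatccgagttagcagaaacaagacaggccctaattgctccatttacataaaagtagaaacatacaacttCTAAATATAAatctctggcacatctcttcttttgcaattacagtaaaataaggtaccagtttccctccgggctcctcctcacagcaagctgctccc
Acvr1c promoter, chr2:58357759-58358008, − strand: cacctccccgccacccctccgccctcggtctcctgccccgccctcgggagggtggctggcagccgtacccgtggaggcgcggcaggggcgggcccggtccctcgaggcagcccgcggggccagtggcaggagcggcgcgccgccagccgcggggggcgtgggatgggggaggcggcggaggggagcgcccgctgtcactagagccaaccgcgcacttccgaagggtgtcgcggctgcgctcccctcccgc
The Inhba sequence was AT-rich, with 43.2% G and C. The MEF2 consensus was found from −96 to −87 relative to the start, on both strands, and a TATA box core (TATAAA) from −91 to −86 overlapped it. Of 32851 promoters of the same length, 2.92% held the MEF2 consensus and 12.4% the TATA box core on either strand. The Acvr1c sequence had 79.6% G and C and held none of the 7 motifs searched, nor did the sequence before a second listed Acvr1c start, where G and C made up 49.6%. The other motifs were the AP-1 site (TGANTCA, in 6.75% of promoters), the cAMP response element (TGACGTCA, 1.55%) and its core (TGACG, 17.8%), the Smad-binding element (CAGAC, 42.2%) and the CArG box (1.47%), each searched on both strands. Among the other members with a listed start, the Smad-binding element was found before Acvr2a, Acvr2b and, at 2 places, Fstl3, which also held a TATA box core. These matches describe letters only, and 8 of the 9 genes had an entry.

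Inhba, which encodes the beta A subunit of activin A, lies at chr13:16011851-16031621 on the + strand (GRCm38). In kainate neurons it was at 295, 76.2 and 203 CPM in replicates 1, 2 and 3. Sham neurons held 18.5, 12.7 and 20.4 CPM. All kainate neuron libraries were above all sham neuron libraries, and replicate 2 was the lowest of them. The fitted log2 fold change was 3.47 ± 0.55 (standard error, SE), an 11.1-fold difference, and it stayed between 3.02 and 3.85 when each library was left out in turn. By replicate number the difference in log2 CPM was 3.99, 2.58 and 3.31.

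Within each treatment, Inhba was lower in glia than in neurons. Kainate glia were at 16.1, 12.4 and 34.1 CPM and sham glia at 3.90 and 7.04 CPM, again without overlap. The highest glia value, 34.1 CPM in kainate replicate 3, exceeded every sham neuron value. The log2 fold change in glia was 1.93 ± 0.61 (95% interval 0.62 to 3.23).

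Inhbb, the gene of the beta B subunit, lies at chr1:119415465-119422248 on the − strand and moved in the other direction. It was at 7.04, 1.94 and 1.89 CPM in kainate neurons and at 13.1, 7.32 and 7.83 CPM in sham neurons, so that every kainate neuron library was below every sham neuron library. The log2 fold change was −1.39 ± 0.62, and −2.29 without kainate neuron replicate 1, the highest of its group. In glia Inhbb was at 15.9, 7.57 and 6.43 CPM after kainate and at 36.8 and 9.97 CPM in sham. Here the groups overlapped, and the sham glia value rests on the low-input replicate 1: the log2 fold change of −1.23 ± 0.66 became 0.02 without it.

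Within a library, the Inhba share of both ligand transcripts was taken from CPM per kilobase of exon. This scale corrects for exon length, and other differences between genes in how they are counted were not tested. It was 96.5, 96.3 and 98.6% in kainate neurons and 48.5, 53.6 and 63.5% in sham neurons. Kainate glia held 40.3, 52.2 and 77.9% and sham glia 6.59 and 32.0%. On this scale beta A and beta B transcripts were thus at similar levels in sham neurons, and beta A made up nearly all in kainate neurons. The share in kainate glia was above that in sham glia in all libraries, with p = 0.2 (exact permutation test of the mean, two-sided, n = 3 and 2), where the smallest p this design allows is 0.1.

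**Figure D1:**
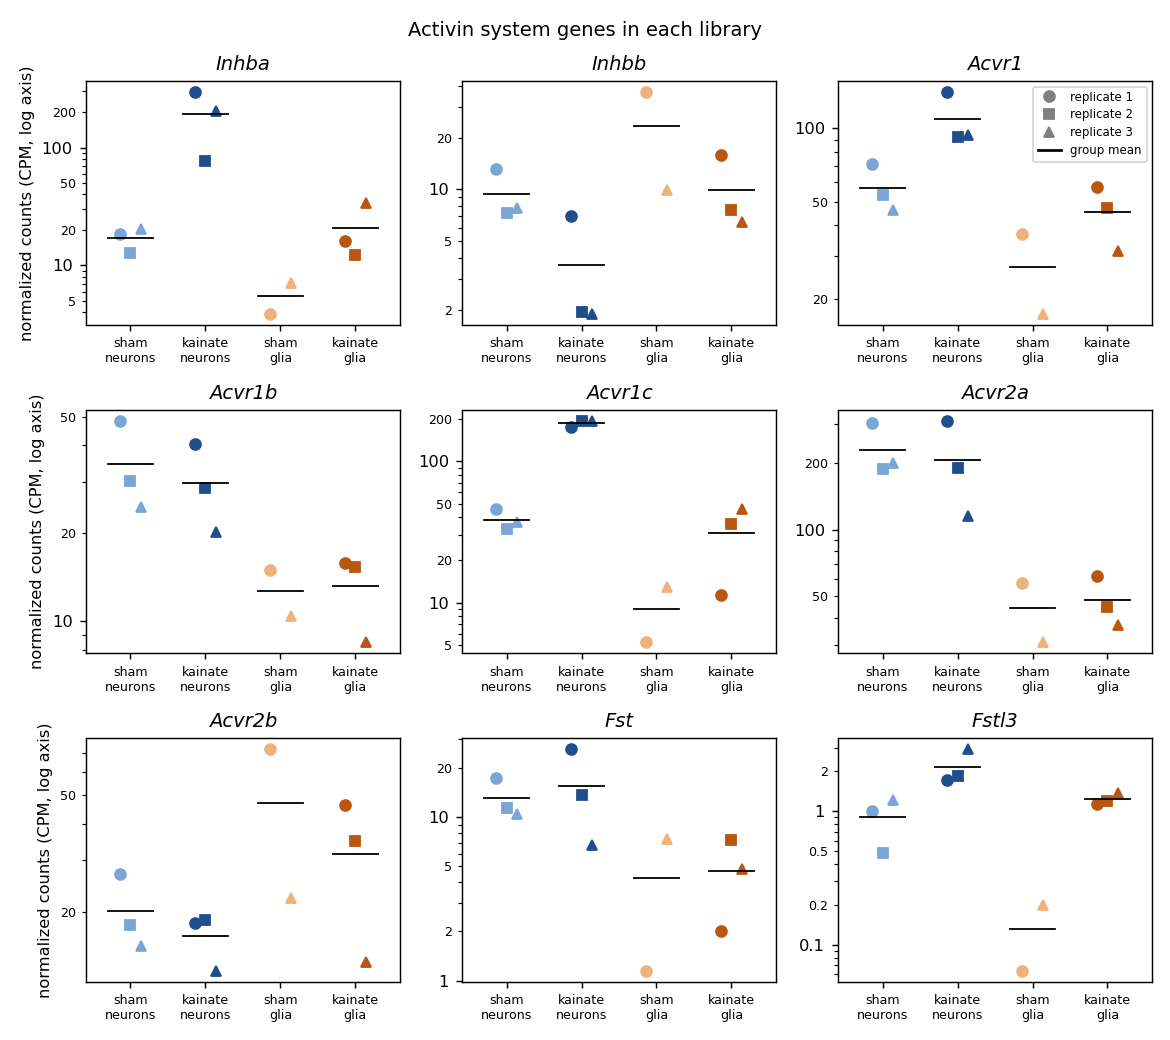
Normalized counts (CPM, log axis) of the 9 genes in each library, by group; point shapes give the replicate number and lines the group mean. Inhba and Acvr1c are highest in the 3 kainate neuron libraries, and Inhbb is lower in them than in the sham neuron libraries.

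Acvr1c encodes ALK7, a type I receptor that activin B and related ligands use, and lies at chr2:58267453-58357895 on the − strand. It was at 174, 193 and 193 CPM in kainate neurons and at 45.7, 32.9 and 37.2 CPM in sham neurons. The kainate libraries lay close together and far above sham. The log2 fold change was 2.28 ± 0.49, a 4.84-fold difference, between 2.17 and 2.41 with each library left out in turn. Kainate glia held 11.2, 35.8 and 45.7 CPM and sham glia 5.24 and 12.8 CPM. Kainate glia replicate 1 was below sham glia replicate 3, so these groups overlapped, with a log2 fold change of 1.78 ± 0.56 (95% interval 0.58 to 2.97).

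Exons of Acvr1c overlap those of Gm13544, an antisense gene on the other strand, and the library kit does not mark strand, so reads of the 2 genes cannot be told apart where they overlap. Gm13544 itself was assigned between 0 and 94 reads per library. Exons of Acvr2a, Fst and Fstl3 also overlap those of a gene on the other strand (Orc4, Gm47040 and Prss57).

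Acvr1, the gene of ALK2, a type I receptor best known for bone morphogenetic protein signals, is the neighbour of Acvr1c at chr2:58388644-58567157, on the same strand, with 30748 bases and no annotated gene between them. It was at 141, 92.0 and 93.9 CPM in kainate neurons and at 71.2, 53.1 and 46.3 CPM in sham neurons. The groups did not overlap, and the log2 fold change was 0.94 ± 0.38. In kainate glia Acvr1 was at 57.7, 47.0 and 31.5 CPM and in sham glia at 36.9 and 17.4 CPM, which overlapped (0.74 ± 0.43).

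Acvr1b, the gene of ALK4, the main type I receptor of activin A, lies at chr15:101174067-101213684 on the + strand. Its level was 40.4, 28.6 and 20.2 CPM in kainate neurons and 48.6, 30.3 and 24.6 CPM in sham neurons. The groups overlapped, and the log2 fold change was −0.21 ± 0.39. In glia it was 15.9, 15.3 and 8.49 CPM after kainate and 15.0 and 10.5 CPM in sham (0.06 ± 0.44).

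Among the transcripts of these 2 activin type I receptors, per kilobase, Acvr1c held 67.2, 76.2 and 82.0% in kainate neurons and 30.9, 34.1 and 41.9% in sham neurons. The order of the pair was thus turned in every kainate neuron library. In glia the Acvr1c share was 25.2, 52.7 and 71.9% after kainate and 14.3 and 36.8% in sham, with overlap (exact permutation p = 0.3, two-sided).

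The type II receptors bind the ligand first. Acvr2a, at chr2:48814109-48903269 on the + strand, was at 312, 190 and 116 CPM in kainate neurons and at 302, 189 and 200 CPM in sham neurons. Acvr2b, at chr9:119402118-119434995 on the + strand, was at 18.3, 18.8 and 12.6 CPM and at 26.9, 18.1 and 15.3 CPM. Both overlapped between the treatments, with log2 fold changes of −0.16 ± 0.42 and −0.28 ± 0.49.

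In glia Acvr2a was at 61.9, 44.7 and 37.0 CPM after kainate and at 57.4 and 30.9 CPM in sham (0.12 ± 0.47). Acvr2b was at 46.3, 34.9 and 13.5 CPM and at 72.0 and 22.4 CPM, a log2 fold change of −0.58 ± 0.54 that became 0.53 without the low-input sham glia replicate 1. Acvr2a made up between 86.4 and 92.2% of the pair, per kilobase, in all 6 neuron libraries. It made up 48.0, 47.0 and 65.4% in kainate glia and 35.5 and 48.9% in sham glia. The type II receptor transcripts of neurons were therefore mostly Acvr2a, and those of glia were mixed. Between sham neurons and sham glia p was 0.1 (exact permutation test, two-sided, n = 3 and 2), the smallest possible. This test ignores that both fractions of a pool come from the same mice.

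**Figure D2:**
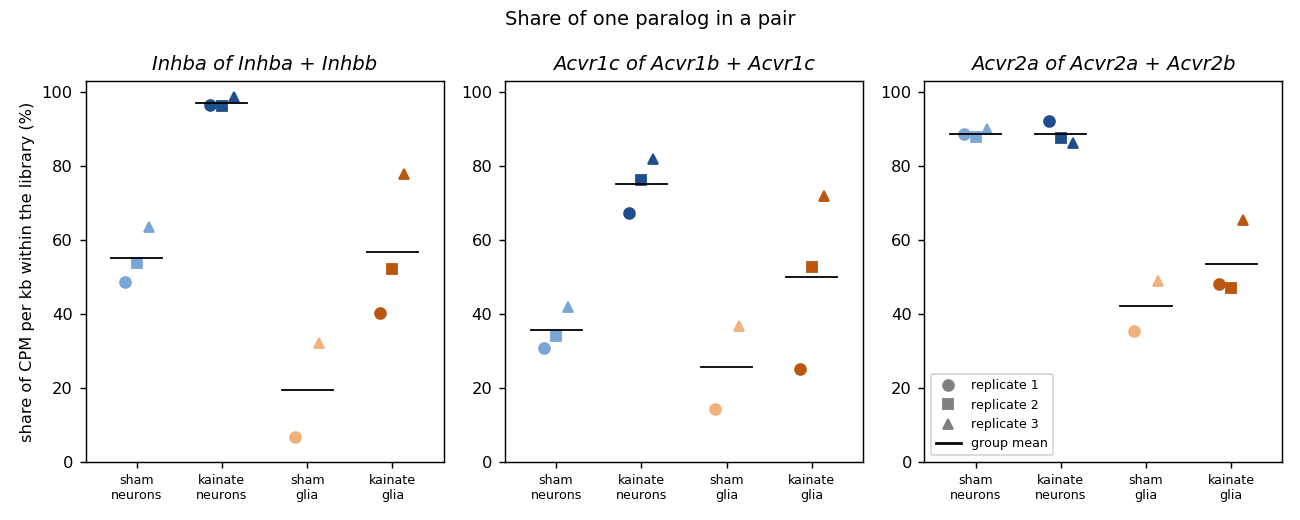
Share of Inhba in Inhba + Inhbb, of Acvr1c in Acvr1b + Acvr1c and of Acvr2a in Acvr2a + Acvr2b within each library (%, from CPM per kilobase), by group; point shapes give the replicate number and lines the group mean. The Inhba and Acvr1c shares of kainate neurons lie above those of sham neurons, and the Acvr2a share separates neurons from glia.

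Fst, at chr13:114452290-114458951 on the − strand, was at 26.2, 13.7 and 6.80 CPM in kainate neurons and at 17.5, 11.4 and 10.4 CPM in sham neurons, with overlap (0.24 ± 0.64). In glia it was at 2.01, 7.23 and 4.83 CPM after kainate and at 1.15 and 7.39 CPM in sham, a wide spread within both groups (0.14 ± 0.73). The ratio of Inhba to Fst, per kilobase, was 8.09, 4.01 and 21.4 in kainate neurons and 0.762, 0.799 and 1.41 in sham neurons. The ratio was higher in every kainate neuron library than in any sham neuron library. In glia it was 5.75, 1.23 and 5.07 after kainate and 2.43 and 0.684 in sham, with overlap.

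Fstl3, at chr10:79777272-79782630 on the + strand, had the lowest mean per kilobase of the 9 genes in all groups but kainate neurons. It was at 1.71, 1.83 and 2.93 CPM in kainate neurons and at 1.01, 0.488 and 1.22 CPM in sham neurons, without overlap, with a log2 fold change of 1.25 ± 0.64. Kainate glia held 1.13, 1.19 and 1.38 CPM, and sham glia 0.0639 and 0.198 CPM. These glia values stand for 18, 35 and 49 reads after kainate against 1 and 4 reads in sham. The 1 read is from the low-input sham replicate 1. Set against TMM-adjusted library totals, the summed 102 and 5 reads gave a ratio of 9.02 (exact 95% interval 3.74 to 28.4, counting error only). That interval treats reads as independent, which the amplified libraries do not assure. The fitted log2 fold change was 3.15 ± 0.87.

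In neurons 2 of the 9 genes, Inhba and Acvr1c, were called at an adjusted p below 0.25, the study's own threshold, where 0.165% of all genes were called. The study analysed neurons and glia separately and kept fewer genes, so its calls and these are not on a like footing. Blocking on the replicate number gave 4 calls (Inhba, Inhbb, Acvr1 and Acvr1c), beside 5.09% of all genes. In 5 of the 9 genes the kainate and sham neuron libraries did not overlap, beside 7.86% of all genes. The family was chosen on this contrast, so these counts describe the choice. Inhba was no longer called without sham neuron replicate 2 or 3, and Acvr1c without any 1 of the 6 neuron libraries or without kainate glia replicate 2. The median log2 fold change of the 9 genes was 0.24, against −0.01 over all genes.

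In glia none of the 9 genes passed in edgeR's quasi-likelihood test (0 of 9, beside 0.101% of all genes). The adjusted p was 0.969 for Fstl3 and 1.00 for the other 8 genes. At an unadjusted p below 0.05 edgeR gave 3 genes, Inhba, Acvr1c and Fstl3, beside 2.05% of all genes. DESeq2 called 2, Inhba (adjusted p = 0.193) and Acvr1c (adjusted p = 0.182), and gave no adjusted p for Fstl3, which was left out of its adjustment. The groups of 2 genes, Inhba and Fstl3, did not overlap, beside 8.22% of all genes.

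Samples with the same replicate number deviated together, least so in neuron replicate 2. The pairing was found in these same data, so the p-values of a fit blocked on it depend on that choice. This block fit is given beside the unblocked one. In edgeR it called 6 of the 9 genes in glia, beside 5.79% of all genes. Inhba rose (2.17 ± 0.27, adjusted p = 1.06e-07), as did Acvr1c (1.50 ± 0.25, adjusted p = 5.44e-05), Fstl3 (3.20 ± 0.83, adjusted p = 0.0169) and Acvr1 (0.75 ± 0.23, adjusted p = 0.0627), all in edgeR. Inhbb fell (−0.93 ± 0.33, adjusted p = 0.151) and so did Acvr2b (−0.68 ± 0.26, adjusted p = 0.210), in the same edgeR fit. Kainate glia replicate 2 has no sham partner, so this glia contrast rests on replicates 1 and 3 alone. In replicate 1 the kainate library had 1 ng of RNA input and the sham library 0.05 ng. Input and treatment therefore cannot be told apart in that pair. In replicates 1 and 3 the log2 CPM of Inhba differed by 2.02 and 2.26 and that of Acvr1c by 1.09 and 1.83.

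In both glia pairs, of which that of replicate 1 also differs in RNA input, Inhba, Acvr1c, Acvr1 and Fstl3 were higher and Inhbb lower after kainate. The neuron pairs had the same directions, but the family was chosen on the neuron contrast. Neurons and glia of a pool also come from the same mice. The share of all genes with such agreement was not computed. Without sham glia replicate 3, the only sham glia library left is the low-input replicate 1, with 1 read of Fstl3 and 576 of Inhbb. The spread of sham glia cannot be estimated from 1 library, so no calls of that fit are given.

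The glia libraries carried neuronal transcripts. By pool, the summed neuronal markers in glia were at 8.56, 17.0 and 19.9% of their level in neurons after kainate and at 9.49 and 14.3% in sham. Inhba in glia was at 5.44, 16.3 and 16.8% of its neuronal level after kainate and at 21.0 and 34.5% in sham. Acvr1c was at 6.45, 18.6 and 23.6% and at 11.5 and 34.4%. In kainate glia both genes thus lay near the share of the neuronal markers. Neuronal markers summed to between 487 and 724 CPM in kainate glia and to between 449 and 622 CPM in sham glia. Gad1 was the only marker of any list without overlap between kainate and sham glia (55.6 to 65.7 against 25.8 to 42.6 CPM). Over all genes, 8.22% did not overlap in glia. The part of neuronal transcripts in the glial differences was not tested. Inhbb was the reverse, at 225, 391 and 340% of its neuronal level in kainate glia and at 281 and 127% in sham glia.

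Marker lists of glial cell types were lower in some kainate glia libraries. Summed oligodendrocyte markers ran from 4631 to 25862 CPM in kainate and from 8319 to 36814 CPM in sham glia, and summed astrocyte markers from 347 to 2269 CPM and from 959 to 3767 CPM. No marker of any list passed without the block in glia. With it, 3 of 5 astrocyte, 3 of 5 oligodendrocyte, 4 of 4 oligodendrocyte precursor and 2 of 5 microglia markers fell and 1 of 5 neuronal markers rose. In neurons no marker passed without the block either. With it, 3 of 5 astrocyte markers rose and 2 fell, 1 of 5 microglia markers rose and 1 fell, 1 of 5 oligodendrocyte markers fell and 1 of 5 neuronal markers rose. Kainate and sham neurons did not overlap for Aqp4, a water channel of astrocytes (5.55 to 20.4 against 2.62 to 5.45 CPM). Csf1r, a receptor of microglia, was likewise apart (16.6 to 30.2 against 7.99 to 12.1 CPM), and both were higher after kainate. Slc1a2, which was higher, and P2ry12, which was lower, did not overlap either, beside 7.86% of all genes. Summed astrocyte markers in neurons ran from 212 to 284 CPM after kainate and from 152 to 213 CPM in sham, and summed microglia markers from 62.4 to 66.7 CPM and from 41.2 to 61.4 CPM. The part of these markers in the results of the activin genes was not tested.

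**Figure D3:**
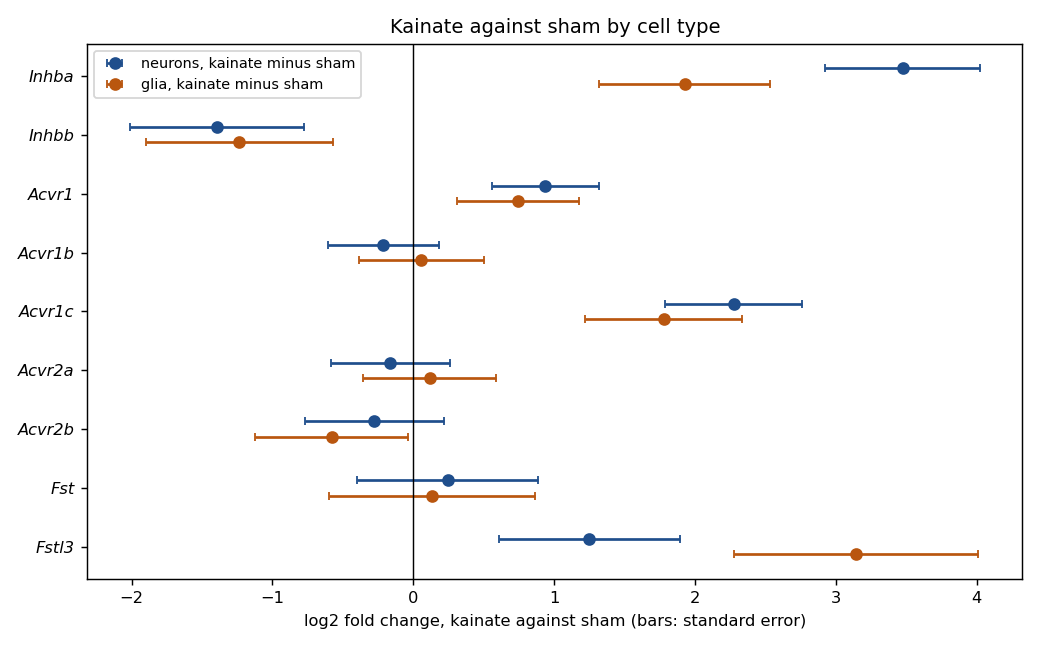
Log2 fold change between kainate and sham for the 9 genes in neurons and in glia, with SE, from the fit without the block. Inhba is at 3.47 in neurons and 1.93 in glia, Acvr1c at 2.28 and 1.78, and Inhbb below 0 in both.

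The difference between the kainate effects in neurons and in glia contains the neuron contrast and is a description too. It was 1.55 ± 0.75 for Inhba (95% interval −0.07 to 3.17), 0.50 ± 0.70 for Acvr1c and −1.89 ± 1.03 for Fstl3 (−4.12 to 0.33). The intervals of all 9 genes included 0. With the block that of Inhba was 1.12 ± 0.34 (0.44 to 1.80) and that of Acvr1c 0.78 ± 0.32 (0.15 to 1.42).

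The comparison of sham neurons with sham glia shows where each gene is expressed without kainate. Its sham neuron libraries also enter the neuron contrast. In edgeR's test 7 of the 9 genes passed, beside 16.7% of all genes, and their median log2 difference, neurons minus glia, was 1.61 over the 9 genes and −0.37 over all genes. Of the 7, 6 were higher in neurons and 1, Acvr2b, was higher in glia.

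Acvr2a had a log2 difference of 2.38 ± 0.52 (adjusted p = 0.00936) and Acvr1c of 2.09 ± 0.57 (adjusted p = 0.0320) in edgeR's test. Fstl3 (2.70 ± 0.86, adjusted p = 0.0717) and Acvr1b (1.44 ± 0.46, adjusted p = 0.0766) followed. These 4 calls held without each library in turn, and that of Fstl3 was lost without both low-input libraries (2.20, adjusted p = 0.278). The sham glia level of Fstl3 rests on 5 reads.

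The other calls rested on single libraries. Inhba (1.65 ± 0.60, adjusted p = 0.129) did not pass without sham neuron replicate 3 (1.51) or sham glia replicate 1 (1.33). Acvr1 (1.07 ± 0.44, adjusted p = 0.197) did not pass without kainate neuron replicate 2, sham glia replicate 3 (0.62), the low-input kainate glia library or sham neuron replicate 1 or 2. Acvr2b (−1.23 ± 0.54, adjusted p = 0.240) was at −0.12 (adjusted p = 0.898) without the low-input sham glia replicate 1. It also did not pass without any 1 of the kainate neuron libraries, sham neuron replicate 2 or 3, or kainate glia replicate 2.

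Inhbb (−1.31 ± 0.66, adjusted p = 0.339) and Fst (1.61 ± 0.77, adjusted p = 0.297) did not pass in edgeR's test. Fst differed by 3.50 without sham glia replicate 3, which leaves only the low-input sham glia replicate 1 with 18 reads of Fst. With the pool as a block, since both fractions of a pool come from the same mice, all 9 genes passed in edgeR, beside 34.0% of all genes. Inhbb was then at −0.92 ± 0.38 (adjusted p = 0.138) and Fst at 2.06 ± 0.89 (adjusted p = 0.157). Sham neuron replicate 2 has no glial partner and does not enter that value.

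**Figure D4:**
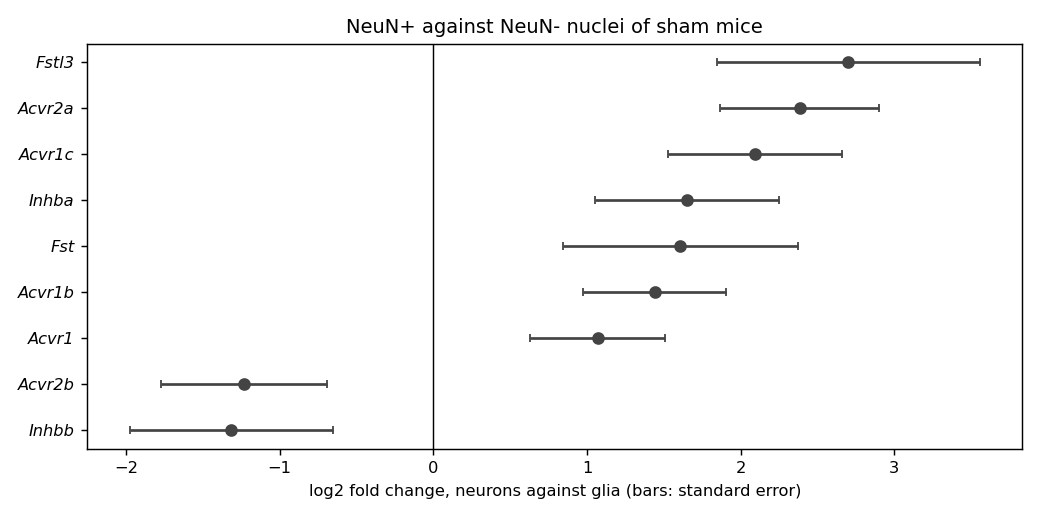
Log2 difference between sham neurons and sham glia for the 9 genes, with SE, from the fit without the block. The 7 genes above 0 are at 1.07 to 2.70, and Acvr2b and Inhbb lie below 0.

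The order of the levels, in CPM per kilobase, differed between groups. In sham neurons Acvr2a led with a mean of 40.5, followed by Acvr1 at 11.8, Acvr1b at 7.81, Acvr2b at 5.12, Acvr1c at 4.15, Fst at 2.86, Inhba at 2.70, Inhbb at 2.21 and Fstl3 at 0.371. Only 2 pairs of neighbours in that order did not overlap, Acvr2a with Acvr1 and Inhbb with Fstl3. In kainate neurons the means per kilobase were 36.2 for Acvr2a, 30.0 for Inhba, 22.6 for Acvr1 and 20.1 for Acvr1c, whose ranges overlapped from each to the next. Acvr1b at 6.73 stood apart below them, and Inhbb came last at 0.852.

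In sham glia Acvr2b had the highest mean, from 18.3 and 5.69 per kilobase in replicates 1 and 3, with Acvr2a at 7.77, Acvr1 at 5.61 and Inhbb at 5.50, each overlapping the next. In kainate glia Acvr1 at 9.40, Acvr2a at 8.42 and Acvr2b at 8.04 overlapped, and Inhba at 3.26 was near Acvr1c at 3.33.

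Other genes of the pathway were taken from a list of 44, of which 43 could be tested: other ligands, receptors, extracellular inhibitors and convertases, and Smads with their regulators. In neurons 1 rose and 0 fell in edgeR's test, and in glia also 1 rose and 0 fell, beside 0.165% and 0.101% of all genes called. With the replicate block 11 rose and 3 fell in neurons, beside 5.09% of all genes, and 5 rose and 1 fell in glia, beside 5.79%. The median log2 fold change of the 43 genes was 0.15 in neurons, against −0.01 over all genes, and 0.12 in glia, against 0.02. The list was drawn up with results of these libraries known.

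Pmepa1, a target of Smad signalling that dampens it, rose in neurons from between 14.5 and 31.0 CPM to between 105 and 154 CPM, by 2.58 ± 0.49 (edgeR adjusted p = 0.142). In glia it was at 1.16 ± 0.53 (edgeR adjusted p = 1.00, and 0.00137 with the block). Smad7, the inhibitory Smad that is itself a Smad target, was at 29.1 to 56.4 CPM in kainate and 12.5 to 22.3 CPM in sham neurons, without overlap (1.45 ± 0.45, edgeR adjusted p = 0.970, and 4.19e-07 with the block). Skil, which encodes a repressor of Smad complexes, was likewise apart (1.36 ± 0.34, edgeR adjusted p = 0.393, and 8.99e-07 with the block). In glia Skil was at 1.06 ± 0.38 (edgeR adjusted p = 1.00, and 0.00772 with the block). These 3 regulators, named because they were among the called genes with the smallest p, were higher in each kainate neuron library than in any sham neuron library. Over all genes, 7.86% did not overlap in neurons. Of the 16 Smads and regulators listed, all but these 3 and Smad3 overlapped. Only Pmepa1 passed without the block. With the block Ski and Tgif1 were called higher in neurons too (edgeR adjusted p = 0.0588 and 0.0643). Bambi, listed with the receptors, was called lower (−0.78 ± 0.25, edgeR, blocked adjusted p = 0.0764). So was Lefty1, listed with the inhibitors (−1.11 ± 0.34, edgeR, blocked adjusted p = 0.0683).

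Smad3, which carries the activin signal, had a log2 fold change of 0.71 ± 0.32 in neurons (edgeR adjusted p = 1.00, and 0.0136 with the block). Of the convertases that cleave precursors of this ligand family, Pcsk5 was at 1.36 ± 0.43 (edgeR, blocked adjusted p = 5.40e-06) and Furin at 0.88 ± 0.37 (edgeR, blocked adjusted p = 0.00127), both without overlap between kainate and sham neurons; neither passed without the block (edgeR adjusted p = 1.00 for both). Furin in glia was at 0.70 ± 0.42 (edgeR adjusted p = 1.00, and 0.103 with the block).

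Tgfbr2, the type II receptor of transforming growth factor beta, was at 14.2 to 24.9 CPM in kainate and 5.57 to 7.38 CPM in sham neurons (1.54 ± 0.38, edgeR adjusted p = 0.404, and 2.07e-06 with the block). Tgfbr3, its coreceptor, which also binds inhibins, was lower in kainate neurons (−0.84 ± 0.34, edgeR, blocked adjusted p = 0.00545). Without the block neither passed, while the study, which analysed neurons separately, listed Tgfbr2 as upregulated in them.

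In glia Fstl4, a follistatin-like gene, rose from 4.98 and 11.8 CPM in sham to between 43.7 and 52.8 CPM after kainate (2.50 ± 0.48, edgeR adjusted p = 0.166). Ski, which encodes a partner of Skil (0.60 ± 0.47, edgeR, blocked adjusted p = 0.129), and Bmpr1b, a type I receptor of bone morphogenetic proteins (−1.04 ± 0.62, edgeR, blocked adjusted p = 0.190), were called in glia with the block alone (edgeR adjusted p = 1.00 for both without it).

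**Figure D5:**
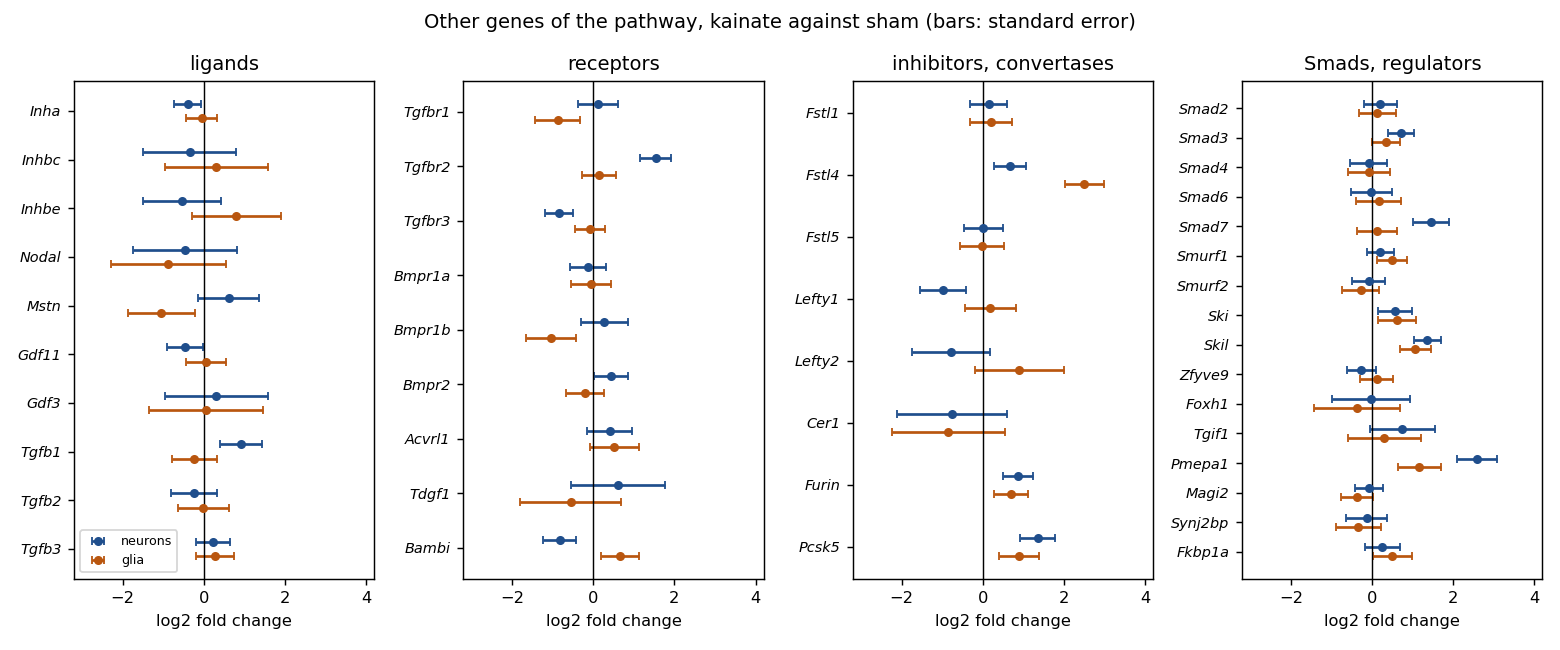
Log2 fold change between kainate and sham for the 43 other pathway genes in neurons and glia, with SE, from the fit without the block. Pmepa1 at 2.58 in neurons and Fstl4 at 2.50 in glia are the 2 that passed.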

How the data were processed

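The mRNAseq part of the series was used, 11 libraries; the bisulfite libraries of the same nuclei were not used here. Per the methods, libraries were made with a SMART-Seq kit that does not mark strand. The deposited table holds raw counts per gene: the authors trimmed reads with Trim Galore 0.4.3, aligned them to mm10 with Rsubread and counted uniquely mapped reads over GENCODE genes with featureCounts. Without molecular identifiers, a counting interval covers counting error only. Groups were taken from the sample labels. The replicates are pools of mice, so p-values measure the spread between these pools.

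Of 53379 genes, 105 had no symbol and were left out, and edgeR's filterByExpr kept 40714. All libraries entered 1 fit of edgeR 4.0.16 (R 4.3.3): TMM scaling, group means, quasi-likelihood F test, Benjamini-Hochberg adjustment over all genes tested, and an adjusted p below 0.25 as the threshold, as in the study. The biological coefficient of variation was 0.600. CPM are TMM-scaled; CPM per kilobase divide by the union of GENCODE exons. DESeq2 1.42.0 was an alternative. Promoters and motif matches came from RefSeq sequences of GRCm38.p6. Scripts were tested on simulated data.

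Kainate and sham libraries with the same replicate number in the labels deviated together from their group means (correlation across genes 0.643, 0.161 and 0.491 in neurons and 0.760 and 0.787 in glia). The number is therefore treated as a pairing, which comes from the data, since the mice of a pair are different. Correlations between different numbers were not compared. The deviations of sham glia replicates 1 and 3 mirror each other, so the glia values are not independent. Per the methods, libraries of both hippocampi were sequenced on NextSeq with single reads or on HiSeq with paired-end reads. The part of sequencing and pooling in the pairing was not tested. The block fit had 3 residual degrees of freedom, against 7 without it, and borrowed more across genes (prior degrees of freedom 48.0 against 6.76). Both fractions of 1 pool come from the same mice.

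The members, gene lists and tests were chosen with earlier results of these data known. Of the other pathway genes, those called with or without the block were named, up to the 8 with the smallest p per cell type. Ski, Tgif1, Bambi and Lefty1 are named in neurons besides these. For Inhba and Acvr1c the 3 genes with the most similar profile are named. Alternatives were another scaling and test, other filters, a separate fit per cell type, a stricter threshold, the block, RNA input and leaving out each library.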

Additional observations from a re-analysis of the deposited data

How the results depend on the processing

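The number of the 9 genes called depended on the settings as follows. In neurons 2 were called; 0 at an adjusted p below 0.05, 1 with RNA input as a covariate, 4 with the replicate block, and 0 to 2 with each library left out in turn (0 without sham neuron replicate 2 or 3). In glia 0 were called, against 2 by DESeq2 and 6 with the replicate block. Leaving out sham glia replicate 3 raised the count, but the low-input replicate 1 is then the only sham glia library. Between sham neurons and sham glia 7 were called; 2 at an adjusted p below 0.05, 4 without both low-input libraries, 9 with the pool as replicate block, and 5 to 8 with each library left out. The difference between cell types had 0 calls, 0 to 0 with each library left out, and 1 with the replicate block. With only genes of the RefSeq table, an alternative chosen after the data were seen, the replicate block again called 4, 6 and 1.

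Over all genes the calls rose with the replicate block from 67 to 2072 in neurons and from 41 to 2357 in glia, and DESeq2 called 360 and 254. The pool block raised those of the sham comparison from 6816 to 13859. The block is reported beside each result of the 9 genes that it changed and changed no other call of theirs.

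The log2 fold changes called without the block kept their sign. Of those not called without it in glia, of which Inhbb and Acvr2b were called with it, Acvr1b went to −0.0363 with DESeq2's size factors, −0.0365 in DESeq2, −0.11 with the replicate block and −0.11 with the block over RefSeq genes, and ran from −0.19 to 0.36 with each library left out. Fst went to −0.0733 with the replicate block, −0.0752 with the block over RefSeq genes and −1.08 without both low-input libraries, and ran from −0.62 to 2.02. Without both low-input libraries Inhbb was at 0.18 and Acvr2b at 0.45; with each library left out Inhbb ran from −1.90 to 0.0216, Acvr2b from −1.20 to 0.53 and Acvr2a from −0.27 to 0.66. The cause was not tested. With 2 sham glia libraries, leaving 1 out uses the spread of the other groups, and Fstl3 in sham glia is limited by its 5 reads.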

Other observations

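Over the 11 libraries, which share group, depth and input differences, the genes whose log2 CPM followed Inhba most closely among 24722 genes were C2cd4b (Pearson r = 0.952), Nptx2 (0.950), which encodes a neuronal pentraxin of excitatory synapses, and Etv3l (0.950). Nptx2 had a mean of 351 CPM in kainate neurons, 31.8 CPM in sham neurons, 42.6 CPM in kainate glia and 8.62 CPM in sham glia. C2cd4b was at 32.0, 5.88, 5.66 and 0.900 CPM in the same order. Those closest to Acvr1c were 1700016P03Rik (0.988), 4930404N11Rik (0.986) and Gm42809 (0.986), of which 1700016P03Rik had means of 28.0, 5.54, 2.94 and 0.950 CPM. Within the family, Inhba and Acvr1c had r = 0.914 and Inhba and Inhbb r = −0.735. These correlations describe the 11 libraries and carry no test.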
